A study of Mus musculus with 15 samples.

Results

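Adenylate kinases move a phosphate between ATP and AMP, with ADP as the shared product, and so set how much AMP a cell makes when its ATP runs down. The isoenzymes differ in their place in the cell: Ak1 and Ak5 in the cytosol, Ak3 and Ak4 in the mitochondrial matrix and Ak6 mostly in the nucleus. Ak4 is known as a gene that hypoxia-inducible factor 1 (HIF-1) turns on, and Ak5 is best known from brain. The genes described here are Ak1, Ak3, Ak4, Ak5 and Ak6, which were chosen by name because Ak4 and Ak5 differed in opposite directions between the genotypes, to be set against the other isoenzymes. Of these 5 genes, 4 are among the 12545 genes of the deposited expression table, and Ak1 was not analysed here.

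RNA was sequenced from 15 T cell leukemia lines of FVB/NJ background, each grown from the thymus of a sick mouse and kept in OPTI-MEM without treatment. All 15 lines lack E2a. The 8 DKO lines in addition carried floxed Lef1 alleles and the LckCre transgene, while the 7 other lines, labelled SKO, were E2a-/- alone. Cre driven by the Lck promoter acts in developing T cells from an early thymic stage, and the floxed segment holds the DNA-binding domain, so shortened Lef1 mRNA can still be counted. Each line is 1 library from 1 leukemia, and the spread between lines includes whatever differs between leukemias.

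Values are in CPM (the reads of a gene scaled to a common total of reads on genes in every library). The libraries held 4847970 to 21681586 reads on the listed genes, so that 3 reads, the least counted here as detected, came to between 0.138 and 0.618 CPM. Lef1, the deleted gene, stood at 103 to 210 CPM in the 8 DKO lines and at 668 to 1558 CPM in 6 SKO lines. The library labelled SKO132 held 59.0 CPM, below every DKO line, and had the lowest median rank correlation with the other lines (Spearman rho of 0.891), so the genotype differences of the 4 listed adenylate kinases and of the related genes are given with and without it. All 8 T lineage markers are listed in the table. Their sum ran from 5372 to 7807 CPM in DKO lines and from 3926 CPM, in the library labelled SKO132, to 6230 CPM in SKO lines. None of 5 B lineage and 7 erythroid markers is listed, and the 2 listed of 6 myeloid markers summed to no more than 14.0 CPM in any line. Of 6 markers of stroma and epithelium 3 are listed, with sums of 64.6 to 1115 CPM, and of 5 neuronal markers 1 is listed, at 0.461 to 33.5 CPM.

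The stretches just before the transcription starts of Ak4, Ak3 and Ak6 are shown because they set the isoenzyme read mainly in 1 line beside those read in all 15 lines. They are the 250 bases upstream of a RefSeq start (GRCm38.p6), written on the strand of the gene, and for Ak4 they belong to the first of 4 annotated starts. Capitals mark the core of the HIF binding element, ACGTG or GCGTG on either strand. It occurs 2 times before Ak4 (chr4:101419039-101419288, plus strand), 0 times before Ak3 (chr19:29047962-29048211, minus strand) and 4 times before Ak6 (chr13:100651093-100651342, plus strand). The core is common, in 38.6% of 32851 such stretches. The LEF and TCF core CTTTGA is in 13.8% of these stretches and the E box CANNTG, which overlaps the HIF core where the letters are CACGTG, is in 66.2%. Neither has a match in the 3 stretches shown. A match is a run of letters and no evidence of binding, and the letters do not sort the isoenzyme of 1 line from those of all lines.
Ak4: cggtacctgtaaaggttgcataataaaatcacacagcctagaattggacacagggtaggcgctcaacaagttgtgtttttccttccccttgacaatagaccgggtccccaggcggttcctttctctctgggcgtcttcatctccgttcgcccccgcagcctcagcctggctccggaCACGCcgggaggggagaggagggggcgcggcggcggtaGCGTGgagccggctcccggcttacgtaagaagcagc
Ak3: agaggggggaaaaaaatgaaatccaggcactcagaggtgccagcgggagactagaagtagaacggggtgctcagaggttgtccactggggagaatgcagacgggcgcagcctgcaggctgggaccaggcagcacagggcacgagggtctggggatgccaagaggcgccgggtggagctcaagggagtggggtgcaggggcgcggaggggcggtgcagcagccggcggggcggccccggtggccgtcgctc
Ak6: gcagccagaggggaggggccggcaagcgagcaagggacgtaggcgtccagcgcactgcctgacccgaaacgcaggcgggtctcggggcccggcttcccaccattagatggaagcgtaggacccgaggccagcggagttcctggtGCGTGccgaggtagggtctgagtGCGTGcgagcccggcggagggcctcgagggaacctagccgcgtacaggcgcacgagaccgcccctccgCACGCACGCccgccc

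**Figure D1:**
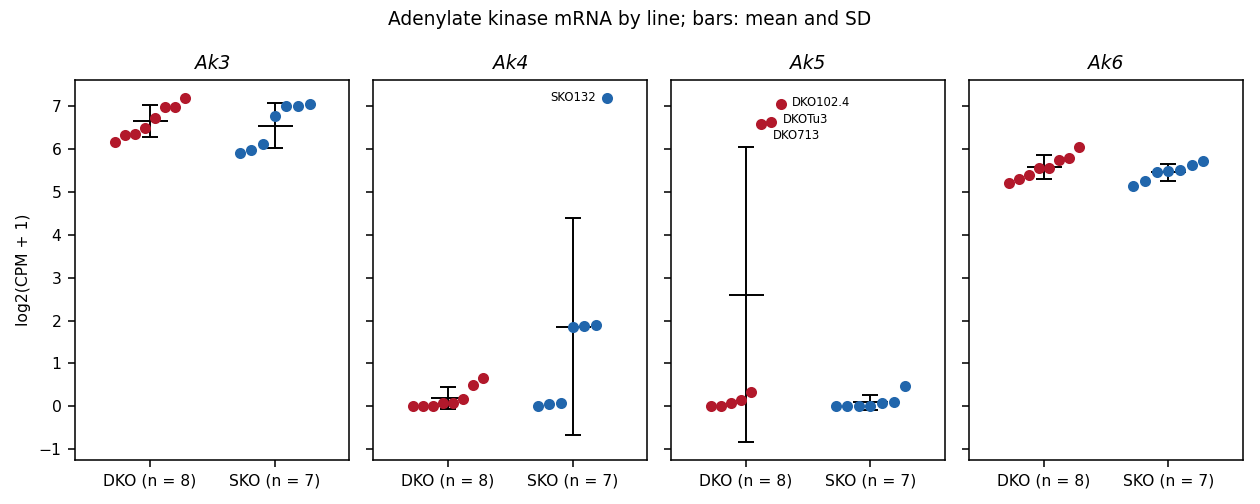
Expression of the 4 listed adenylate kinases as log2(CPM + 1), with a point for each line, DKO (n = 8) in red and SKO (n = 7) in blue, and black bars for the mean and SD. Ak3 and Ak6 lie in a narrow band in all lines, whereas Ak4 is high in SKO132 alone and Ak5 in DKO102.4, DKOTu3 and DKO713.

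Ak4 and Ak5 were each read almost wholly in a few lines, while Ak3 and Ak6 were read at similar levels in both genotypes. Since the genotype contrast of these genes was what they were chosen for, their differences are described without a test.

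Ak3 makes ADP in the mitochondrial matrix and prefers GTP as the phosphate donor. It (ENSMUSG00000024782, on chromosome 19, minus strand, at 29095323 to 29122451 as the table lists it) was at 70.5 to 145.7 CPM in DKO lines, with a median of 96.6 CPM. In SKO lines it was at 59.1 to 131.1 CPM, with a median of 107.8 CPM. The SKO lines did not spread evenly: SKO163.5, the library labelled SKO132 and SKO115.2 held 59.1, 62.2 and 68.4 CPM, and the other 4 held 107.8 CPM or more. The means were 102.3 ± 27.2 CPM (mean and SD) over the 8 DKO lines and 97.4 ± 33.0 CPM over the 7 SKO lines. The difference, DKO minus SKO, of mean log2(CPM + 1) was 0.10 (SE 0.24), and 0.0097 without the library labelled SKO132. The ranges overlapped in part: the 3 low SKO lines lay below every DKO line, and DKO548, at 145.7 CPM, lay above every SKO line. The 3′ end of Ak3 overlaps Cdc37l1, on the other strand, by 4001 bp. Whether reads were counted by strand is not given in the sources used here, so reads in this overlap cannot be assigned.

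Ak4 is the other matrix enzyme. It (ENSMUSG00000028527, chromosome 4, plus strand, 101091882 to 101140376 in the table) reached 145.8 CPM in the library labelled SKO132, from 2644 reads (95% Wilson interval 140.4 to 151.5 CPM). That library holds 94.2% of the 2808 reads on Ak4 over the 15 lines and 54.0 times the CPM of the next line. The next 3 lines were also SKO: SKO186.5 at 2.70 CPM (57 reads), SKO137.1 at 2.67 CPM (43 reads) and SKO156.6 at 2.62 CPM (38 reads). These 3 lie within the counting intervals of one another.

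In the remaining SKO lines Ak4 was near or at 0, with 0.0461 CPM in SKO95 and 0.0518 CPM in SKO115.2, 1 read each, and no read in SKO163.5. Among DKO lines DKOTu3 was highest at 0.578 CPM (11 reads), and DKO192.3 held 0.421 CPM (9 reads), which lies within the counting interval of the former. DKO170.2 had 2 reads (0.128 CPM), DKO548 and DKO713 had 1 read each (0.0575 and 0.0483 CPM), and DKO79.9, DKO102.4 and DKO241 had none. With 3 reads as the limit of a count of 0, up to 0.618 CPM is possible in DKO79.9, the shallowest library, so this line cannot be ordered against DKOTu3. Thus 4 SKO lines lay above every DKO line and 3 lay within the DKO range.

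The mean of Ak4 was 0.154 ± 0.222 CPM (SD, n = 8) in DKO lines. In SKO lines it was 21.99 ± 54.6 CPM (SD, n = 7), and 1.35 ± 1.44 CPM (SD, n = 6) without the library labelled SKO132. The difference of mean log2(CPM + 1) was -1.67 (SE 0.96), and -0.77 without that library. The SD of the SKO lines was larger than their mean in either case. In RNA from a whole line, a high level in a few cells and a low level in many cannot be told apart.

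Ak5 is a cytosolic enzyme. It (ENSMUSG00000039058, chromosome 3, minus strand, 152125779 to 152331104 in the table) was at 130.8 CPM in DKO102.4 (2675 reads, 95% Wilson interval 125.9 to 135.8 CPM). DKOTu3 held 98.1 CPM (1866 reads, 93.8 to 102.7 CPM) and DKO713 held 94.4 CPM (1954 reads, 90.3 to 98.7 CPM). DKO102.4 was thus above the other two by more than counting error, and those lay within the intervals of each other. These 3 lines hold 99.8% of the 6511 reads on Ak5.

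The 5 other DKO lines gave next to nothing: DKO170.2 had 4 reads (0.255 CPM), DKO241 had 2 (0.106 CPM), DKO548 had 1 (0.0575 CPM), and DKO79.9 and DKO192.3 had none. Among SKO lines the library labelled SKO132 had 7 reads (0.386 CPM), SKO156.6 and SKO115.2 had 1 each (0.0690 and 0.0518 CPM), and the other 4 had none. DKO713, the lowest of the 3 high lines, was at 244.5 times the CPM of the highest of the 12 others. Mean levels were 40.5 ± 56.7 CPM (mean and SD) over the 8 DKO lines and 0.0724 ± 0.141 CPM over the 7 SKO lines. The difference of mean log2(CPM + 1) was 2.51 (SE 1.218), and 2.57 without the library labelled SKO132. The groups overlapped, since 5 of 8 DKO lines were within the range of the SKO lines. No line was high for both Ak4 and Ak5.

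Ak6 acts in the nucleus and in ribosome assembly. It (ENSMUSG00000078941, chromosome 13, plus strand, 101421298 to 101436368 in the table) was at 35.6 to 65.1 CPM in DKO lines and 34.4 to 51.9 CPM in SKO lines. The means were 47.3 ± 9.62 CPM (SD, n = 8) and 43.3 ± 6.06 CPM (SD, n = 7), a difference of 0.11 (SE 0.12) on the log2 scale, and 0.12 without the library labelled SKO132. DKO170.2, DKO102.4 and DKO241 lay above every SKO line. Ak6 starts at the same position as Taf9, a subunit gene of the TFIID transcription complex, and shares 4717 bp of its span with it. How reads on shared exons were counted is not given in the sources used here, so the level of Ak6 is uncertain. Taf9 was at 70.1 ± 15.9 CPM (mean and SD) over the 8 DKO lines and 68.6 ± 11.3 CPM over the 7 SKO lines, and DKO170.2 was the highest line for both genes.

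The groups of all 4 listed genes overlapped. Of all genes tested, 0.175% did not overlap between the genotypes, so overlap is the rule and is no result about these genes. Outside the set, Ak7, a gene of ciliated cells, was at 6.94 CPM in SKO115.2 and at no more than 1.24 CPM elsewhere.

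Levels of different genes can be set side by side only per length, here CPM divided by the length of the longest annotated transcript in kb. On this scale the mean of Ak3 was 36.4 ± 9.68 in DKO and 34.7 ± 11.7 in SKO lines, and that of Ak6 was 36.4 ± 7.41 and 33.3 ± 4.67 (SD, n = 8 and n = 7). Ak3 was above Ak6 in 8 of 15 lines and below it in 7, so their order is not set. Where they were read, Ak4 and Ak5 came to the level of the isoenzymes read in all lines: Ak4 reached 33.4 CPM per kb in the library labelled SKO132, beside 22.1 for Ak3 and 34.3 for Ak6 in the same library. Ak5 reached 39.4, 29.5 and 28.4 CPM per kb in DKO102.4, DKOTu3 and DKO713.

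As shares of the summed level per kb of the 4 genes, Ak4 took 37.1% in the library labelled SKO132 and Ak5 took at most 31.3% in any line. The length matters: the table lists a width for each gene that is within 10% of the longest transcript for only 18.1% of 12172 annotated genes. For Ak4 it is 24996 bp against a longest transcript of 4360 bp. Divided by these widths, Ak4 took 8.35% in the library labelled SKO132, and Ak6 was above Ak3 in 15 of 15 lines. The share of Ak5 was at most 31.3% by either length.

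**Figure D2:**
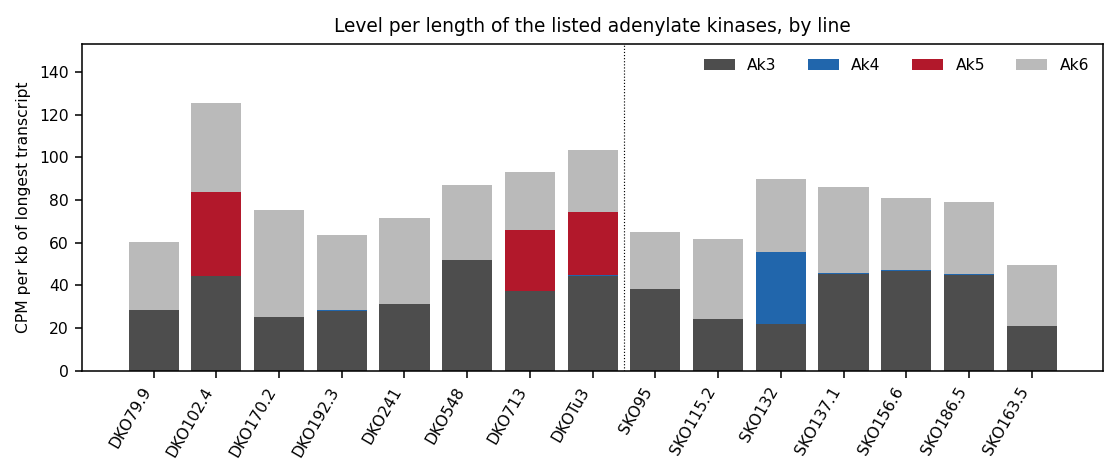
Stacked bars of the level of Ak3, Ak4, Ak5 and Ak6 in each line, in CPM per kb of the longest transcript, with DKO lines left and SKO lines right of the dotted line. Ak3 and Ak6 make up nearly the whole bar except in DKO102.4, DKO713 and DKOTu3, where Ak5 adds 28.4 to 39.4, and in SKO132, where Ak4 adds 33.4.

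Within a genotype, where the choice of genes does not bear on the result, Ak3 and Ak6 showed no detectable relation. In DKO lines Pearson's r of log2(CPM + 1) was -0.36 (n = 8, exact permutation p = 0.372, adjusted p = 0.854) and Spearman's rho was -0.43 (exact permutation p = 0.299, adjusted p = 1.0). In SKO lines r was 0.16 (n = 7, exact permutation p = 0.712, adjusted p = 0.854) and rho was 0.25 (exact permutation p = 0.595, adjusted p = 1.0). Without the 2 lines farthest from the median of Ak3, r was -0.073 in DKO and -0.12 in SKO lines. Adjustment was over 12 relations, all pairs of the 4 genes in both genotypes, and tests were 2-sided. For pairs with Ak4 or Ak5 no coefficient is given. Ak4 in SKO lines and Ak5 in DKO lines were high in 1 or a few lines and far lower in the rest. Ak4 in DKO lines and Ak5 in SKO lines were near 0 throughout, at no more than 0.578 and 0.386 CPM.

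Around Ak5, the gene on the other strand was read in the same 3 lines. ENSMUSG00000085901, which has no symbol in the table, overlaps the 5′ end of Ak5 by 1228 bp and runs away from it. It was at 15.2 CPM in DKO102.4, 20.6 CPM in DKO713 and 27.3 CPM in DKOTu3, and at no more than 0.106 CPM in the 12 others. Without strand, its reads and those of Ak5 in the overlap cannot be told apart. At the 3′ end Zzz3, a chromatin reader gene that overlaps Ak5 by 12 bp, was at 104 to 218 CPM in all 15 lines, with DKO713 highest.

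Only 4 genes of the table (0.0319%) were highest in these 3 lines with at least 5 CPM in each and at least 10 times every other line: Ak5, ENSMUSG00000085901, Slc9a2 and Rasal2. Slc9a2, a sodium-proton exchanger, was at 43.8 CPM in DKO102.4, 64.1 CPM in DKO713 and 7.15 CPM in DKOTu3, and at no more than 0.447 CPM elsewhere. Rasal2, a Ras GTPase-activating protein, was at 13.9 CPM or more in the 3 lines and at no more than 1.02 CPM elsewhere. The 3 lines took the top 3 ranks, in any order and at any level, for 105 genes or 0.837% of the table.

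By rank correlation over the 15 lines, among the 9707 genes that averaged 5 CPM or more, the genes most like Ak5 were Myo6 (rho 0.909), Rxylt1 (0.893), Pak1ip1 (0.858), Eef1e1 (0.835) and Pigk (0.832). Pigk, which acts in attaching GPI anchors, is on chromosome 3 with Ak5. It was at 47.9, 55.1 and 54.3 CPM in DKO102.4, DKO713 and DKOTu3 and at 30.9 to 47.7 CPM elsewhere, a far smaller contrast than that of Ak5. After subtracting genotype means, Slc9a2 (rho 0.937), Hook1 (0.866) and Ybx3 (0.856) were among the closest.

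The measured levels separate these genes. Hook1, a microtubule-linked adaptor protein, held 86.3 CPM in DKOTu3 and 13.7 CPM in DKO102.4 but 0.290 CPM in DKO713, and it held 66.1 CPM in the library labelled SKO132, against no more than 0.616 CPM elsewhere. Ybx3, a cold shock domain protein, held 310, 178 and 131 CPM in DKOTu3, DKO102.4 and DKO713, but also 268 CPM in the library labelled SKO132 and 38.4 CPM in DKO170.2. Most ranks of Ak5 rest on values of 0 to 7 reads, and all coefficients use the same 15 libraries, so they are descriptions only.

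**Figure D3:**
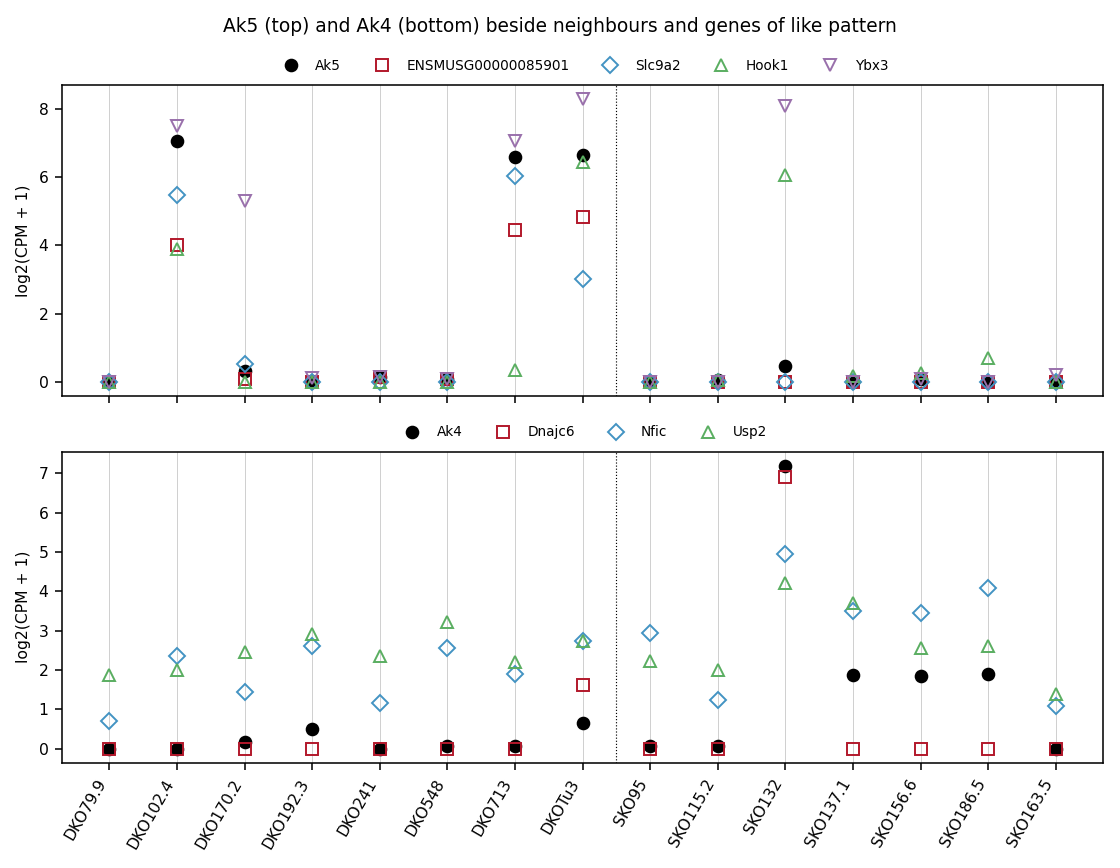
Expression as log2(CPM + 1) in each of the 15 lines, DKO left and SKO right of the dotted line, of Ak5 with its opposite-strand neighbour and 3 genes of like pattern (top) and of Ak4 with its neighbour Dnajc6 and 2 genes of like pattern (bottom). Ak5, its neighbour and Slc9a2 are high in DKO102.4, DKO713 and DKOTu3 only, while Hook1 and Ybx3 are also high in SKO132 and Hook1 is at 0.290 CPM in DKO713. Ak4 and Dnajc6 share their peak in SKO132.

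Around Ak4, the gene downstream was read in the same library. Dnajc6, an auxilin that strips clathrin from vesicles, begins 28876 bp beyond the end of Ak4 on the same strand. It was at 119.2 CPM in the library labelled SKO132 and 2.05 CPM in DKOTu3, and no read was counted in the 13 others. SKO137.1, SKO156.6 and SKO186.5, which held 2.62 to 2.70 CPM of Ak4, are among these 13. Upstream, E130102H24Rik lies 63028 bp away and was at 1.16 CPM or less in every line.

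Ak4 and Dnajc6 are among 32 genes (0.255% of the table) that were highest in the library labelled SKO132 with at least 5 CPM and at least 10 times the next line. Of the 32, 4 (12.5%) are on chromosome 4, which holds 6.34% of the genes of the table. These 4 include Ak4, which was chosen for its pattern, and its neighbour Dnajc6. The share is therefore no result about the chromosome. The library labelled SKO132 was the highest of the 15 lines for 15.7% of all genes and the lowest for 8.79%.

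The genes most like Ak4 in rank over the 15 lines were Nagpa (rho 0.867), Galk2 (0.849), Nfic (0.845), Pgpep1 (0.827) and Ptgr1 (0.825). After subtracting genotype means they were Cacna1c (rho 0.871), Nfic (0.867), Usp2 (0.860), Chd3 (0.842) and Faah (0.842). Nfic, a nuclear factor I transcription factor, was at 29.7 CPM in the library labelled SKO132, at 9.87 to 16.1 CPM in SKO137.1, SKO156.6 and SKO186.5, and at 6.64 CPM or less in the 11 others. Chd3, a chromatin remodeller of the NuRD complex, was at 0.691, 2.95 and 5.11 CPM in SKO95, SKO115.2 and SKO163.5, the 3 SKO lines with at most 1 read of Ak4. In the other 12 lines Chd3 was at 115.3 to 579 CPM, the 3 DKO lines with no read of Ak4 included. Galk2 ran from 33.8 to 52.6 CPM and Nagpa from 9.08 to 21.1 CPM, far smaller contrasts than that of Ak4.

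Because Ak4 is known as a target of HIF-1, its highest line was read beside 23 genes of HIF-1 response and glycolysis, of which 22 are listed. The library labelled SKO132 was the highest line for 8 of them (Aldoa, Tpi1, Eno1, Ldha, Slc16a3, Bnip3, Ndrg1 and Vegfa), beside 15.7% of all genes. It was the lowest for 2 of the 22, beside 8.79% of all genes. These were Egln3 and Ankrd37, which are HIF-1 targets as well, at 54.8 CPM (SKO mean 129 CPM) and 1.16 CPM (SKO mean 3.46 CPM). Ndrg1, a stress-response gene, was at 592 CPM there and at 3.09 to 259 CPM in the other lines. Bnip3, a mitophagy receptor, was at 21.5 CPM there and at 7.30 CPM or less elsewhere, and Slc16a3, a lactate exporter, at 5.02 CPM against 1.14 CPM or less. Hif1a itself was at 214 CPM, beside means of 184 CPM in DKO and 232 CPM in SKO lines. The same library was the lowest line for 5 of 8 T lineage markers, beside 8.79% of all genes. Among the 5 were Cd3d at 47.0 CPM and Ptcra at 0.165 CPM (3 reads). It was not the lowest for Thy1, Bcl11b and Tcf7, at 849, 350 and 2034 CPM (SKO means 926, 394 and 1878 CPM). The part of these differences in the level of Ak4 was not tested. Of these genes, all but Tpi1 and Vegfa are named because of their values in this library.

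The enzymes around the adenylate kinases gave no call between the genotypes. Of 84 genes in 6 lists, 70 are in the table, and none had an adjusted p under 0.01 by limma, beside 0.0478% of all genes (0.0239% higher and 0.0239% lower in DKO lines). The count was also 0 by edgeR's quasi-likelihood test, beside 0.00797% of all genes, by its likelihood ratio test, beside 0.67%, and by DESeq2, beside 1.41%. At an unadjusted p under 0.05 there were 7 (10.0%), 5 higher and 2 lower in DKO lines, beside 10.2% of all genes (4.33% higher and 5.83% lower). Without the library labelled SKO132 there were 13 (18.6%), 9 of them higher in DKO lines, beside 12.2% of all genes. DESeq2 gave 13 (18.6%), beside 13.0%, and the likelihood ratio test 11 (15.7%), beside 10.4%. Whether the share among these genes differs from that of the table was not tested. Their median difference of mean log2(CPM + 1) was 0.054, against -0.019 over all genes (0.11 and -0.0078 without the library labelled SKO132), and no gene of the lists had groups that did not overlap.

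**Figure D4:**
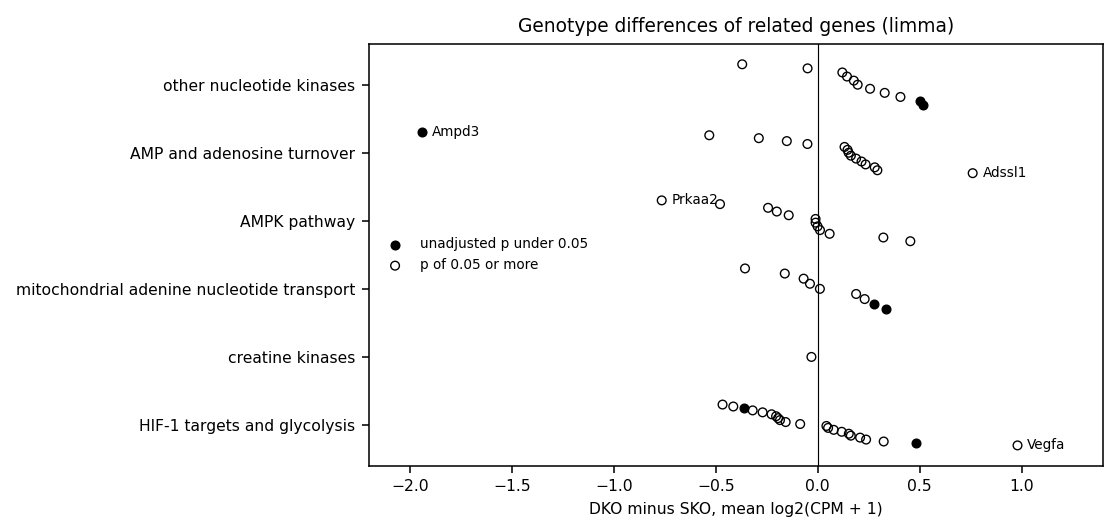
Difference of mean log2(CPM + 1), DKO minus SKO, for the 70 listed genes of the 6 related lists, with a circle for each gene, filled where the unadjusted p by limma was under 0.05. The circles spread to both sides of 0 in all lists with more than 1 gene, and Ampd3 lies farthest from 0, at -1.94.

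Among genes of AMP and adenosine turnover (15 of 17 listed, 10 higher and 5 lower in DKO lines, median 0.15), Ampd3 lay farthest from 0. It encodes an AMP deaminase, which turns AMP into IMP. It was at 0.193 to 9.27 CPM in DKO lines, a mean of 3.17 ± 3.54 CPM (SD, n = 8), and at 8.72 to 13.3 CPM in SKO lines, a mean of 11.02 ± 1.84 CPM (SD, n = 7). The difference was -1.94 (SE 0.43, limma adjusted p = 0.0915), which missed the threshold. By edgeR's quasi-likelihood test the adjusted p was 0.310, by the likelihood ratio test 0.163 and by DESeq2 0.101. Adssl1, which makes adenylosuccinate from IMP, differed by 0.76 (SE 0.79, limma adjusted p = 0.768), with 22.7 CPM in SKO95 alone above the other SKO lines.

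Of other nucleotide kinases 11 of 15 are listed, 9 higher and 2 lower in DKO lines, with a median of 0.20. Guk1, the guanylate kinase, was at 51.9 ± 14.4 CPM (mean and SD) over the 8 DKO lines and 35.7 ± 5.58 CPM over the 7 SKO lines, a difference of 0.50 (SE 0.15, limma adjusted p = 0.259). Nme2, a nucleoside diphosphate kinase, was at 10.5 ± 3.05 and 6.88 ± 1.37 CPM, a difference of 0.51 (SE 0.19, limma adjusted p = 0.355). Nme2 and Nme1 are close paralogs that can share reads, so its level is uncertain.

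The AMP-activated protein kinase (AMPK) senses the AMP that adenylate kinases make. Of its pathway 12 of 13 genes are listed, 4 higher and 8 lower in DKO lines, with a median of -0.011. Prkaa2, a catalytic subunit, was at 2.32 ± 2.44 CPM (mean and SD) over the 8 DKO lines and 16.4 ± 31.8 CPM over the 7 SKO lines, where SKO95 held 86.8 CPM and no other line more than 18.8 CPM. Camkk2, an upstream kinase, differed by -0.48 (SE 0.29, limma adjusted p = 0.599).

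Of genes for mitochondrial adenine nucleotide transport 9 of 12 are listed, 5 higher and 4 lower, with a median of 0.010. Vdac1, the outer membrane channel, was at 434 ± 98.9 CPM in DKO and 341 ± 55.8 CPM in SKO lines, a difference of 0.33 (SE 0.14, limma adjusted p = 0.418). Slc25a23, a calcium-regulated ATP-magnesium carrier, differed by -0.36 (SE 0.20, limma adjusted p = 0.566).

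Of 4 creatine kinases 1 is listed, Ckb, at 2.48 ± 3.53 CPM in DKO and 2.51 ± 3.82 CPM in SKO lines (SD, n = 8 and n = 7), with 10.4 CPM in DKO170.2 and 10.9 CPM in SKO137.1. The 22 listed genes of HIF-1 response and glycolysis were split evenly, 11 higher and 11 lower in DKO lines, with a median of -0.022. Vegfa, an angiogenic factor, differed by 0.98 (SE 0.57, limma adjusted p = 0.574), and Tpi1, triosephosphate isomerase, by 0.48 (SE 0.21, limma adjusted p = 0.463). The library labelled SKO132 was the highest line for both, and both directions are drawn with that library counted as SKO. Without it the difference was 1.35 for Vegfa (limma adjusted p = 0.280) and 0.65 for Tpi1 (limma adjusted p = 0.110). The 11 related genes named here by the size of their difference kept their direction without that library, with limma adjusted p-values of 0.0763 (Ampd3) to 0.909 (Ckb).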

How the data were processed

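The authors sequenced RNA from 15 lines, trimmed the reads with Trimmomatic (0.33), aligned them with TopHat (2.1.0) to mm10, counted them with HTSeq (0.6.1) and scaled them with edgeR, per the study's methods and the submitters' processing notes. The deposited values are CPM. The table's coordinates are not those of GRCm38 and are given as listed, with the deposited width per gene used as 1 of 2 lengths. Dividing by the value of 1 read gave whole reads (tolerance 0.05) for 100% of values in every line. Intervals (95% Wilson) and the floor of 3 reads cover counting error only, since the sources used here name no molecular identifiers.

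Groups came from the labels. Every pair of lines of 1 genotype differed beyond sampling noise (lowest chi-square per degree of freedom 55.7), so each line was counted once. The members, gene lists and tests were chosen with earlier results of these data known. limma (3.58.1, R 4.3.3) was fitted with a variance trend to log2(CPM + 1) of all 12545 genes, 2-sided, with Benjamini-Hochberg adjustment and a threshold of 0.01. The members' genotype contrast was left untested. Exact permutation tests used scipy (1.17.1) in Python (3.11.15). Named genes are all members, in each list the genes past the threshold or otherwise the 2 with the largest difference, the 5 genes most like Ak4 and Ak5 by each measure, Taf9, nearest neighbours and Lef1. Results for some genes that met this rule are not reported here. Other genes named were chosen after their values were seen.

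The results were recomputed with median-of-ratios scaling, with a pseudocount of 0.1 or 2, with genes averaging 1 CPM or more, and with no variance trend, each line left out or the other length, and by edgeR (4.0.16) and DESeq2 (1.42.0) on recovered reads. Tests were tested on simulated data first. The p-values measure the spread between lines, each 1 library. Promoter stretches are from RefSeq (GRCm38.p6), where 4 of 5 members matched.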

Additional observations from a re-analysis of the deposited data

Results flagged for a closer look

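A line was singled out by its gap to the nearest line of its genotype, divided by the range of that genotype. The ratio had to exceed Dixon's 95% critical value. This held in 25 of 114 groups (57 of the named genes in 2 genotypes), and in 13 of the 25 the line was the library labelled SKO132. Chance flags about 5.7 of 114 groups of genes that were not chosen by pattern. Many of these genes were chosen for their pattern over the lines or their values in 1 library, so the count cannot be read against that number.

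Of the adenylate kinases, Ak4 in the library labelled SKO132 was at 145.8 CPM, against 2.70 CPM or less in the other SKO lines. Ak5 in the same library was at 0.386 CPM, which is 7 reads, against 0.0690 CPM or less. Ak7 stood apart in DKO79.9 (1.24 CPM, others up to 0.265 CPM) and in SKO115.2 (6.94 CPM, others up to 0.376 CPM).

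The library labelled SKO132 also stood apart for Dnajc6 (119.2 CPM, others 0), Ybx3 (268 CPM, others up to 0.161 CPM), Hook1 (66.1 CPM, others up to 0.616 CPM), Myo6 (4.47 CPM, others up to 0.363 CPM) and Rasal2 (0.441 CPM, others up to 0.161 CPM). The gaps were smaller for Rxylt1 (35.4 CPM, others up to 20.02 CPM) and Pigk (47.7 CPM, others up to 37.9 CPM). Of the HIF-1 and glycolysis genes it stood apart for Ndrg1 (592 CPM, others up to 259 CPM), Aldoa (813 CPM, others up to 501 CPM), Bnip3 (21.5 CPM, others up to 1.31 CPM) and Slc16a3 (5.02 CPM, others up to 1.14 CPM).

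Of DKO lines, Myo6 stood apart in DKO102.4 (49.0 CPM), Hook1 in DKOTu3 (86.3 CPM), Dnajc6 in DKOTu3 (2.05 CPM), E130102H24Rik in DKO713 (0.918 CPM), Slc16a3 in DKO79.9 (0.824 CPM), Taf9 in DKO170.2 (105.1 CPM) and Ckb in DKO170.2 (10.4 CPM). Of the other SKO lines, Adssl1 and Prkaa2 stood apart in SKO95 (22.7 and 86.8 CPM) and Ckb in SKO137.1 (10.9 CPM).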

How the results depend on the processing

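The log2 differences of Ak4 and Ak5 kept their direction in all 20 alternatives each, and their size depended on the scale. Fitted to recovered reads with TMM factors they were -6.92 and 9.07. These folds compare mean levels, not means of log2(CPM + 1), and also depend on the prior count. The library labelled SKO132 holds 94.2% of the reads on Ak4. DKO102.4, DKO713 and DKOTu3 hold 99.8% of those on Ak5. Leaving out each line gave -1.97 to -0.77 for Ak4, the latter without the library labelled SKO132, and 1.87 to 2.88 for Ak5, the former without DKO102.4. The same gave -0.0025 to 0.19 for Ak3 and 0.044 to 0.17 for Ak6. By the longest transcript instead of the table's width, the median share of Ak3 was 43.9% instead of 33.9% and that of Ak6 42.2% instead of 57.7%. Related genes with an adjusted p under 0.01 numbered 0 in all 23 alternatives. Those with an unadjusted p under 0.05 (7 by limma) were 11 by the likelihood ratio test, 13 by DESeq2 and 5 to 13 with a line left out, 13 without the library labelled SKO132 and 11 without SKO156.6. Spearman's rho of Ak3 with Ak6 was -0.61 to -0.14 in DKO and -0.029 to 0.43 in SKO lines with a line left out, turning sign (-0.029) without SKO137.1 or SKO163.5. No paired analysis was possible because the labels give the genotypes no shared replicate numbers. Depth limits Ak4 and Ak5 in most lines, where they rest on 11 reads or fewer and cannot be ordered.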
